A study of Mus musculus with 8 samples.

Results

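The expression of 6 genes was followed in mouse fibroblasts given retinoic acid (RA): Gstm1, Gstm2, Gstm5, Gsta4, Gsto1 and Gstt1, which belong to 4 classes of the glutathione S-transferase (GST) family. They were taken by symbol as 6 of the 22200 genes of the deposited expression table, and were chosen for their values in the same 8 libraries that are described here. Their levels and differences are therefore given as a description, without a test, and tests are given only for other genes. All 6 passed the minimum mean of 10 normalised reads over the 8 libraries that was set for testing, which 12673 genes passed in all.

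GSTs join the tripeptide glutathione to electrophilic compounds, among them drugs, carcinogens and the aldehydes formed when membrane lipids are oxidised, and the conjugates are then pumped out of the cell. The soluble enzymes are grouped into classes by sequence, with the mu, alpha, omega and theta classes named for the letter in the gene symbol, and several classes lie in the genome as clusters of near copies. Many GST genes are targets of the stress-responsive factor NRF2 in other settings, and some family members also bind signalling kinases or carry out reductions in place of conjugation.

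The cells were immortalised mouse embryonic fibroblasts on the C57BL/6 background whose genotype label is TAF4-/- in every group. TAF4 is a subunit of TFIID, the general factor that recruits RNA polymerase to promoters. The groups were 3 libraries of untreated cells at 12 h, 3 libraries of cells given RA for 12 h and 2 libraries of cells given RA for 72 h. RA is a vitamin A derivative that acts through nuclear receptors. Per the study the TAF4-/- cells came from one line by Cre excision of a floxed Taf4 allele, so all groups share that deletion and no TAF4-expressing library was analysed here. The titles of all 8 libraries carry cl1, which resembles the name C1 that the study uses for the parental TAF4-expressing line, and the genotype labels were followed. No untreated library at 72 h was included, so that RA and time in culture cannot be told apart in the comparisons of 72 h with untreated cells.

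Values were normalised reads per gene. Every column held the same set of values in a different order, with a total of 9442018.6, a median of 20.75 and a floor of 1, so the depth of each library is unknown and no counting error can be given. Of 10 fibroblast markers, 9 had a mean of at least 10 normalised reads, with Thy1 below it, and their summed level was 238528 to 258830 in untreated cells, 239172 to 250045 at 12 h and 218062 to 223706 at 72 h. Hepatocyte markers, from a cell type rich in GSTs, were near the floor, with 0 of 4 at a mean of 10 and a sum of 6.38 to 9.5 in every library. Epithelial markers summed to 19.3 to 36.3, endothelial markers to 38.4 to 70.1 and leukocyte markers to 54.3 to 82.4. A mean of 10 was reached by 1 of the 4 epithelial markers in the table, with Krt8, Krt18 and Krt19 below it. It was also reached by 3 of 4 endothelial markers, with Kdr below it. Of the 5 leukocyte markers, 2 reached it, with Ptprc, Cd68 and Lyz2 below it. The part of the lower fibroblast sum at 72 h in the results below was not tested, and fewer cells of a type cannot be told apart from less RNA per cell. Taf4a itself had 984 to 1449 normalised reads in all 8 libraries, and since it is not given whether these reads lie in the deleted part, this level checks nothing. Within the groups the libraries also differed along one shared axis, which put the first and second untreated libraries together with the third at RA 12 h and the second at RA 72 h, opposite the other 4. The axis was drawn from these same libraries, and on each side some groups have only 1 library. Differences within a side are therefore description only.

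Per the labels, each transcript was read through a tag of 17 bases next to a GATC site, where DpnII cuts. The tag nearest the 3′ end of each transcript is shown because tags are what tells a member apart from its near copies. GATC is in capitals, and positions are on mouse build mm9 from a match of the annotated transcripts to the genome.
Gstm1: GATCctgcaggccctgggtgg
Gstm3: GATCctgcaggctctgggtgg
Gstm5: GATCagaaccgtatatttgag
Gsta4: GATCccaggagtcaagctctt
Gsto1: GATCtaatggtcctaacagtc
Gstt1: GATCcagtgacgtcagacgct
The tags of Gstm5, Gsta4, Gsto1 and Gstt1 matched the genome once. That of Gstm5 (chr3:107701120-107701140) lies in the coding sequence, those of Gsta4 (chr9:78057076-78057096) and Gsto1 (chr19:47939100-47939120) lie in the 3′ UTR, and that of Gstt1 (chr10:75246773-75246793) crosses an end of the coding sequence. The 3′ UTR tag of Gstm1 (chr3:107815540-107815560) matched 2 places, the other being chr5:117082850-117082870, where no gene is annotated. Other tags of Gstm1 matched close to it on the same strand, within the annotated gene Gstm2-ps1 (chr5:117082975-117082995 and chr5:117083272-117083292). Gstm3 is shown because, of the mu class genes compared on chromosome 3, its coding sequence was nearest to that of Gstm1. The sequence on chr5 was not compared in this way. The tag of Gstm2 nearest the 3′ end also lies in the 3′ UTR and matched 2 places, and is not printed.

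Sequence similarity sets how far the mu class members can be separated. The coding sequence of Gstm1 was 86.0% identical to that of Gstm2 and 89.5% identical to that of Gstm3, but 69.5% identical to that of Gstm5 and between 44.3% and 48.3% identical to those of Gsta4, Gsto1 and Gstt1. Of the GATC sites of each transcript, 2 of 7 in Gstm1 and 0 of 4 in Gstm2 gave a tag found nowhere else in the genome or in another gene's transcripts, against 5 of 5 in Gstm5, 2 of 2 in Gsta4, 2 of 2 in Gsto1 and 3 of 3 in Gstt1. Of the coding tags, 2 were common to Gstm1 and Gstm2. How tags with several matches were assigned is not given in the sources used here, so reads from the tags that Gstm1 shares with Gstm2, with Gstm3 or with other places in the genome are uncertain. The tags of Gstm1 and Gstm2 nearest the 3′ end each matched a second place but no transcript of another gene. Gsto1 lies within an annotated gene on the opposite strand whose mean level was 3.70 normalised reads.

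Gstm1, Gstm2 and Gstm5 encode mu class enzymes, of which Gstm1 is a major form in many mouse tissues. At 72 h all 3 were below every untreated library, by 3.48-fold, 2.28-fold and 1.55-fold in the group means. At 12 h Gstm2 and Gstm5 were at the untreated level, and the libraries of Gstm1 overlapped.

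Gstm1 (ENSMUSG00000058135, chr3:107815173-107820891, minus strand) had 957.5, 1193 and 542 normalised reads in the untreated libraries. It had 460.1, 449.6 and 739.9 normalised reads at RA 12 h, and 206 and 310.5 at RA 72 h. The 72 h libraries were both below all others, whereas RA 12 h replicate 3 lay above untreated replicate 3. The group means were 898 ± 329 (SD, n = 3), 549.9 ± 165 (SD, n = 3) and 258 ± 73.9 (SD, n = 2). On the scale of log2(normalised reads + 1) the difference from untreated was -0.67 ± 0.26 (SE) at 12 h and -1.75 ± 0.29 (SE) at 72 h, and the difference between 72 h and 12 h was -1.08 ± 0.29 (SE). The wide untreated spread followed the shared axis, since untreated replicate 3, the lowest, is on the other side from replicates 1 and 2. Within the 2 sides, the log2 difference at 12 h was -0.53 and -0.25, and at 72 h it was -1.78 and -1.39. The 72 h values rest on 1 RA library per side. In a fit that also took the side into account it was -0.41 at 12 h and -1.62 at 72 h. Leaving out 1 library at a time gave -0.997 to -0.43 at 12 h and -2.07 to -1.45 at 72 h.

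Gstm2 (ENSMUSG00000040562, chr3:107784620-107789371, minus strand) had 92.4, 71.5 and 98.3 normalised reads untreated. It had 94.5, 82 and 86.3 normalised reads at RA 12 h, then 31.6 and 45 at RA 72 h. The 12 h libraries all fell inside the untreated range, and both 72 h libraries were below it. Means were 87.4 ± 14.1 (SD, n = 3), 87.6 ± 6.36 (SD, n = 3) and 38.3 ± 9.46 (SD, n = 2). The log2 difference from untreated was 0.01 ± 0.19 (SE) at 12 h and -1.18 ± 0.21 (SE) at 72 h. Its size at 72 h depended on which of the 2 libraries was used, at -0.93 without RA 72 h replicate 1 and -1.42 without replicate 2.

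Gstm5 (ENSMUSG00000004032, chr3:107698739-107701604, plus strand), the mu class member least like the others in sequence, had 809.8, 663 and 733 normalised reads untreated. At RA 12 h it had 783, 762.5 and 655, and at RA 72 h it had 504 and 443. Its pattern was that of Gstm2, with 12 h within or next to the untreated range and both 72 h libraries below it, but the difference was smaller. Means were 735 ± 73.3 (SD, n = 3), 733 ± 68.8 (SD, n = 3) and 474 ± 43.1 (SD, n = 2). The log2 difference from untreated was -0.00 ± 0.11 (SE) at 12 h and -0.63 ± 0.13 (SE) at 72 h, and lay at -0.72 and -0.54 within the 2 sides at 72 h.

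**Figure D1:**
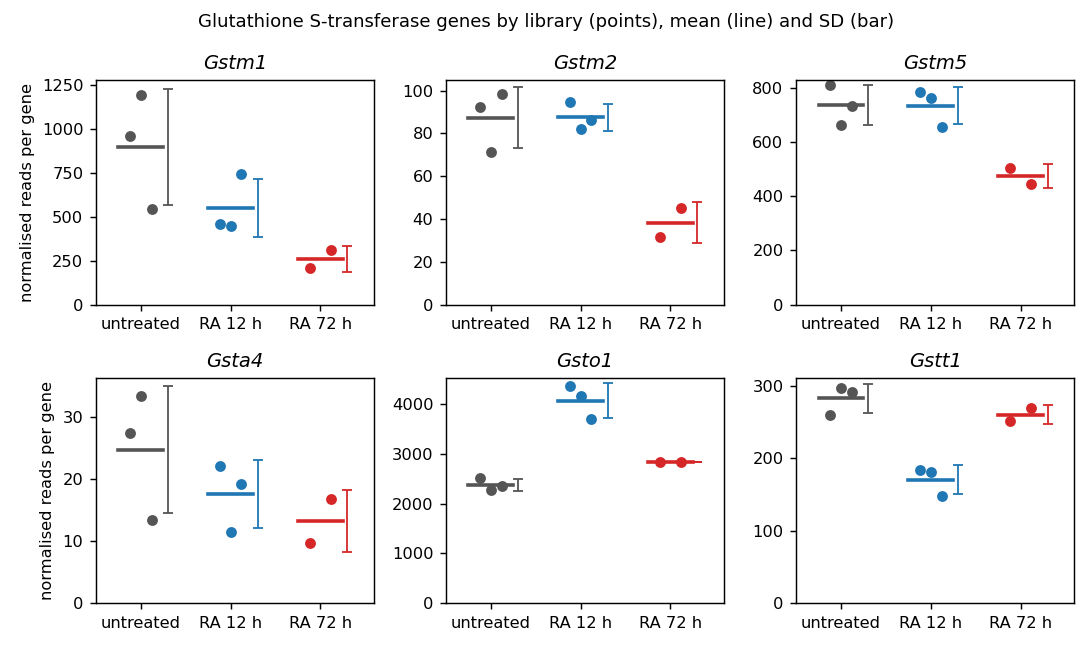
Normalised reads per gene (vertical axis, linear, from 0, with its own scale in each panel) for the 6 GST genes in untreated, RA 12 h and RA 72 h libraries. Points are libraries, lines are group means and bars are ± 1 SD (n = 3, 3 and 2); Gstm1, Gstm2 and Gstm5 were lowest at 72 h, while Gsto1 was highest and Gstt1 lowest at 12 h.

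The mu class genes lie side by side on chromosome 3, in 149.1 kb (chr3:107698739-107847812) in the order Gstm5, Gstm7, Gstm6, Gstm3, Gstm2, Gstm1 and Gstm4. Gstm5 alone is on the plus strand and starts at -122.2 kb from the start of Gstm1, and Gstm2 starts at -31.5 kb from it. The genes between Gstm5 and Gstm2 were hardly detected. Gstm7 had 10.9, 16.8 and 8 normalised reads untreated, 8.38, 4.88 and 5.63 at RA 12 h and 2.5 and 6 at RA 72 h. Gstm3 was at 4.75, 7.13 and 3.38 untreated and at the floor of 1 in both 72 h libraries, and Gstm6, whose annotation overlaps that of Gstm3, was between 2.5 and 5.5 in all 8. Both Gstm7 and Gstm3 were below the minimum mean and were not tested.

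At the other end of the locus Gstm4 did not share the low 72 h level of its neighbours. It had 84.6, 104 and 68.5 normalised reads untreated, 66.4, 40.9 and 83.8 at RA 12 h and 62.6 and 97.6 at RA 72 h, and its groups overlapped. Its log2 difference from untreated was -0.46 ± 0.26 (SE) at 12 h (limma, adjusted p = 0.415) and -0.11 ± 0.29 (SE) at 72 h (adjusted p = 0.867). Of the genes that flank the locus, Ahcyl1 and Ampd2 did not pass the test in any comparison. Csf1, which encodes the macrophage growth factor CSF1 and lies 135.4 kb from the locus, fell by 0.50 ± 0.11 (SE) on the log2 scale at 12 h (limma, adjusted p = 0.0220) and was 0.81 ± 0.13 (SE) higher at 72 h than at 12 h (adjusted p = 0.00199), a course unlike that of the 3 mu class members.

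**Figure D2:**
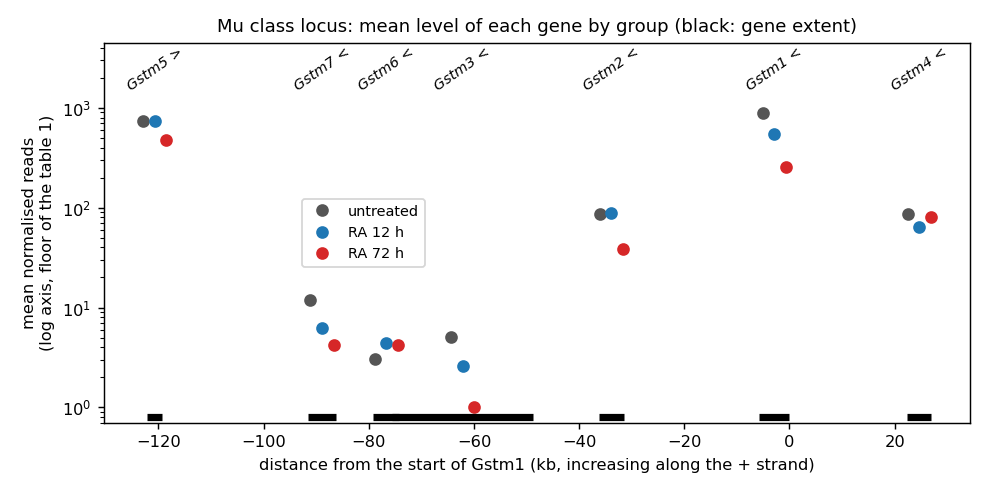
Mean normalised reads (vertical log axis) of the 7 mu class genes against distance in kb from the start of Gstm1, with arrows beside the names for the strand and black bars for the extent of each gene. The 3 points of each gene are the untreated, RA 12 h and RA 72 h means, set side by side for clarity. The 72 h point is below the untreated one for Gstm5, Gstm2 and Gstm1, at 474, 38.3 and 258. It is also below it for the hardly detected Gstm7 (4.25 against 11.9) and Gstm3 (1 against 5.08). For Gstm6, also hardly detected, it is above, at 4.19 against 3.04. For Gstm4 it is close, at 80.1 against 85.7.

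The bases before the start of the 3 mu class members are shown because these genes were low together at 72 h. RefSeq gave a promoter for 5 of the 6 members, on build GRCm38.p6, and Gsta4 had no entry. Of the 2 starts that RefSeq gives for Gstm1, the downstream one is shown. Each run below holds the 250 bases before an annotated start, 5′ to 3′ on the strand of the gene, with capitals at matches to 5 motifs that were searched on both strands: TGACNNNGC, the core of the antioxidant response element bound by NRF2; GCGTG, the core of the xenobiotic response element; TGAGTCA, the AP-1 site; AGGTCA, the hexamer that nuclear receptors bind; and TATAAA, the TATA box.
Gstm5 (chr3:107895604-107895853, plus strand): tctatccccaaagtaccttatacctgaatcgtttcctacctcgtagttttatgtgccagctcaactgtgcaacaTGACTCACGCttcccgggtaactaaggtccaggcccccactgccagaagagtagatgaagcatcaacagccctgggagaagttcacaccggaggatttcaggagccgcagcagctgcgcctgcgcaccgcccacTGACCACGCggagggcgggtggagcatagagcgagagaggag
Gstm2 (chr3:107986421-107986670, minus strand): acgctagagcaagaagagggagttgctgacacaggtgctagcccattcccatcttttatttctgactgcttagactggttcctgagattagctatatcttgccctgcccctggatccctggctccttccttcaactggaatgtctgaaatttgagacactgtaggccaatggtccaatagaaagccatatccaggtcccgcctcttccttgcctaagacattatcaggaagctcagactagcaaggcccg
Gstm1 (chr3:108017819-108018068, minus strand): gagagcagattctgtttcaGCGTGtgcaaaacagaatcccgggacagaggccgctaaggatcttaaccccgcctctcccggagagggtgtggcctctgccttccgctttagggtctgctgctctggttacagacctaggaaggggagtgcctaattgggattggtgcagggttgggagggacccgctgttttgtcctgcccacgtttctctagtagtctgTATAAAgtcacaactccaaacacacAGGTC
In windows that ran on for 50 bases after the start, Gstm5 had the antioxidant core at -42 from the start, an AP-1 match at -176 on the opposite strand, the xenobiotic core at -171 and -38, also on the opposite strand, and TATAAA at 40 after the start. The AP-1 match and the xenobiotic core at -171 overlap, as do the antioxidant core and the xenobiotic core at -38. At the start shown, Gstm1 had TATAAA at -30, the xenobiotic core at -231 and AGGTCA at -5, whose last base is past the end of the run printed. None of the 5 motifs had a match in the windows of Gstm2, Gsto1 or Gstt1. Over 32851 RefSeq promoters of the same length, 12.4% held TGACNNNGC, 32.4% GCGTG, 5.20% TGAGTCA, 16.3% AGGTCA and 13.6% TATAAA.

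Gsta4, an alpha class enzyme that conjugates 4-hydroxynonenal and related products of lipid peroxidation, had the lowest level of the 6 members per kb of exon sequence. Gsta4 (ENSMUSG00000032348, chr9:78039773-78057155, plus strand) had 27.4, 33.4 and 13.4 normalised reads untreated, 22.1, 11.4 and 19.3 at RA 12 h and 9.75 and 16.8 at RA 72 h. Its groups overlapped in every comparison. Means were 24.7 ± 10.3 (SD, n = 3), 17.6 ± 5.57 (SD, n = 3) and 13.3 ± 4.95 (SD, n = 2), and the log2 difference from untreated was -0.42 ± 0.38 (SE) at 12 h and -0.80 ± 0.42 (SE) at 72 h. As with Gstm1, untreated replicate 3 was the lowest of its group. Within the 2 sides of the shared axis the 12 h difference was -0.63 and 0.23. The first value rests on RA 12 h replicate 3 alone and the second on untreated replicate 3 alone. No direction is read from them.

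Gsto1 encodes an omega class enzyme that reduces dehydroascorbate and methylated arsenic and removes glutathione from proteins, with little of the usual conjugating activity. It was the one member whose RA libraries all lay above the untreated ones, by 1.72-fold at 12 h and 1.20-fold at 72 h in the group means. Gsto1 (ENSMUSG00000025068, chr19:47929460-47939280, plus strand) had 2507, 2274 and 2347 normalised reads untreated, 4364.5, 4168 and 3696.5 at RA 12 h and 2842 and 2846 at RA 72 h. The 3 groups did not overlap, with 12 h above 72 h and 72 h above untreated. Means were 2376 ± 119 (SD, n = 3), 4076 ± 343 (SD, n = 3) and 2844 ± 2.91 (SD, n = 2). The log2 difference from untreated was 0.78 ± 0.10 (SE) at 12 h and 0.26 ± 0.11 (SE) at 72 h, and 72 h lay -0.52 ± 0.11 (SE) from 12 h. Its neighbour Gsto2, of the same class and 0.8 kb away, stayed near the floor, with a mean of 4.70 normalised reads over the 8 libraries.

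Gstt1, a theta class enzyme that acts on small halogenated compounds, had the opposite course. Gstt1 (ENSMUSG00000001663, chr10:75246558-75261329, minus strand) had 259.5, 297 and 292 normalised reads untreated, 183, 181 and 147 at RA 12 h and 251.5 and 269.9 at RA 72 h. All 3 libraries at 12 h were below all others, and the 72 h libraries overlapped the untreated ones. Means were 283 ± 20.4 (SD, n = 3), 171 ± 20.1 (SD, n = 3) and 261 ± 13.0 (SD, n = 2), so that 12 h was 1.66-fold lower than untreated. The log2 difference from untreated was -0.73 ± 0.13 (SE) at 12 h and -0.12 ± 0.14 (SE) at 72 h, and 72 h lay 0.62 ± 0.14 (SE) above 12 h. Gstt3, a theta class gene 2.4 kb from Gstt1, was lower than untreated at 72 h. It had 301, 321 and 307 normalised reads untreated, 270.5, 229.9 and 242 at RA 12 h and 199.9 and 233.5 at RA 72 h, and both 72 h libraries were below all untreated ones. Its log2 difference was -0.32 ± 0.12 (SE) at 12 h, which did not pass (limma, adjusted p = 0.176), and -0.52 ± 0.13 (SE) at 72 h, which did (adjusted p = 0.0218). Its libraries at 72 h and 12 h overlapped, with a difference of -0.19 ± 0.13 (SE) that did not pass (adjusted p = 0.487). Gstt4 and Gstt2, on the other side of Gstt1, were near the floor at means of 3.11 and 4.16.

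The 6 members therefore took more than one course. Against untreated cells, 1 member was higher and 1 lower without overlap at 12 h, when 9.42% and 10.6% of all genes tested were so, and 1 was higher and 3 lower at 72 h, when 17.2% and 19.4% of all genes were. Between 72 h and 12 h, 1 was higher and 4 lower without overlap, with 18.1% and 19.2% over all genes. Since the members were chosen on these values, these counts describe them and nothing is read from them. The median log2 difference over the 6 was -0.21 at 12 h and -0.72 at 72 h against untreated, beside -0.02 and -0.02 over all genes, and -0.57 between 72 h and 12 h, beside -0.00. The 2 comparisons with untreated cells share the 3 untreated libraries.

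Levels of different genes were set side by side per kb of exon sequence. In untreated cells Gsto1 had 1207 normalised reads per kb, followed by Gstm1 at 644, Gstm5 at 575, Gstt1 at 185, Gstm2 at 52.0 and Gsta4 at 25.8. The untreated libraries of Gstm1 and Gstm5 overlapped per kb, so these neighbours in the order did not differ beyond their spread. At RA 12 h the order by mean was Gsto1 (2071 normalised reads per kb), Gstm5 (574), Gstm1 (394), Gstt1 (112), Gstm2 (52.2) and Gsta4 (18.4), with Gstm1 and Gstm5 again overlapping. At RA 72 h it was Gsto1 (1445 per kb), Gstm5 (371), Gstm1 (185), Gstt1 (171), Gstm2 (22.8) and Gsta4 (13.8), and Gstm1 now overlapped Gstt1 in place of Gstm5. Per the labels reads come from tags next to GATC sites, so they need not grow with length, and this order holds per kb only. Without division by length, the mean of Gstt1 at RA 72 h (261 normalised reads) was just above that of Gstm1 (258).

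The genes whose courses were nearest to each member were found by the root mean square distance between log2(normalised reads + 1) profiles over the 8 libraries, each centred on its own mean. Nearest to Gstm5 were Idh1, a cytosolic enzyme that makes NADPH, Pitrm1, a mitochondrial protease, and Eme2, at distances of 0.082, 0.086 and 0.087. Nearest to Gsto1 were Nfat5, a transcription factor of the response to osmotic stress, at 0.079, Gnb5 at 0.097 and Skil, an inhibitor of SMAD signalling, at 0.10. For Gstt1 they were Nmi (0.11), Lama4 (0.13), which encodes a laminin chain, and Lrfn4 (0.14). For Gstm2 they were Glt28d2, Lrrc51 and A230083H22Rik, at 0.12, 0.14 and 0.16. For Gstm1 they were Begain at 0.14, Pthlh, which encodes parathyroid hormone-related protein, at 0.20 and 2310043L02Rik at 0.22, and for Gsta4 they were 9530048O09Rik at 0.15, 2700046G09Rik at 0.15 and Spag4 at 0.17. The 3 genes nearest to Gstm1 and the 3 nearest to Gsta4 had untreated means of 16.4 to 28.7 normalised reads, so these profiles rest on low levels. Distances are not compared between members, since the size of a member's own profile differed, from 0.29 (root mean square, log2) for Gstm5 to 0.78 for Gstm1.

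The rest of the GST superfamily showed which changes went beyond the 6 members. Of 24 further genes listed, 20 were in the table and 10 were tested; Gsta1, Gsta2, Gstp1 and Gstp2 were not found under these symbols. A gene was called at an adjusted p below 0.05 in limma with a change of at least 2-fold, which 1.42% of all genes passed at 12 h (1.11% higher, 0.308% lower), 3.67% at 72 h against untreated (2.15% higher, 1.52% lower) and 1.5% between 72 h and 12 h (0.765% higher, 0.734% lower). Of the 10 genes, 0 were called at 12 h, 1 was called lower at 72 h and 0 between the RA times, and without untreated replicate 3 the count at 12 h was 1. By adjusted p alone, 1 of 10 fell at 12 h and 2 of 10 fell at 72 h, beside 1.5% and 5.41% of all genes that fell. No gene of the 10 rose.

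The gene called was Mgst3, a microsomal enzyme with glutathione transferase and peroxidase activity. It had 355, 431 and 271 normalised reads untreated, 187, 199 and 195 at RA 12 h and 115 and 151 at RA 72 h. All 3 groups were separate, each lower than the one before. It fell by 0.84 ± 0.17 (SE) on the log2 scale at 12 h (limma, adjusted p = 0.00887) and by 1.39 ± 0.18 (SE) at 72 h (adjusted p = 0.000249), a 2.65-fold lower mean. The difference between 72 h and 12 h, -0.55 ± 0.18 (SE), did not pass (adjusted p = 0.107).

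The other tested genes of the superfamily gave log2 differences that did not pass at any time. They were Gstz1, of the zeta class, at 0.01 and -0.16 (12 h and 72 h against untreated), Gstcd at 0.17 and 0.19, Mgst2 at 0.17 and -0.27, the prostaglandin E synthases Ptges at 0.73 and 0.36 and Ptges2 at -0.13 and 0.01, and the chloride channel proteins Clic1 at -0.14 and 0.28 and Clic4 at -0.02 and -0.30. Gstz1 and Gstcd had standard errors of 0.11 to 0.14, so that a 2-fold change would have been large beside them, whereas those of Mgst2 (0.51 and 0.57) and Ptges (0.37 and 0.41) leave wide limits.

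**Figure D3:**
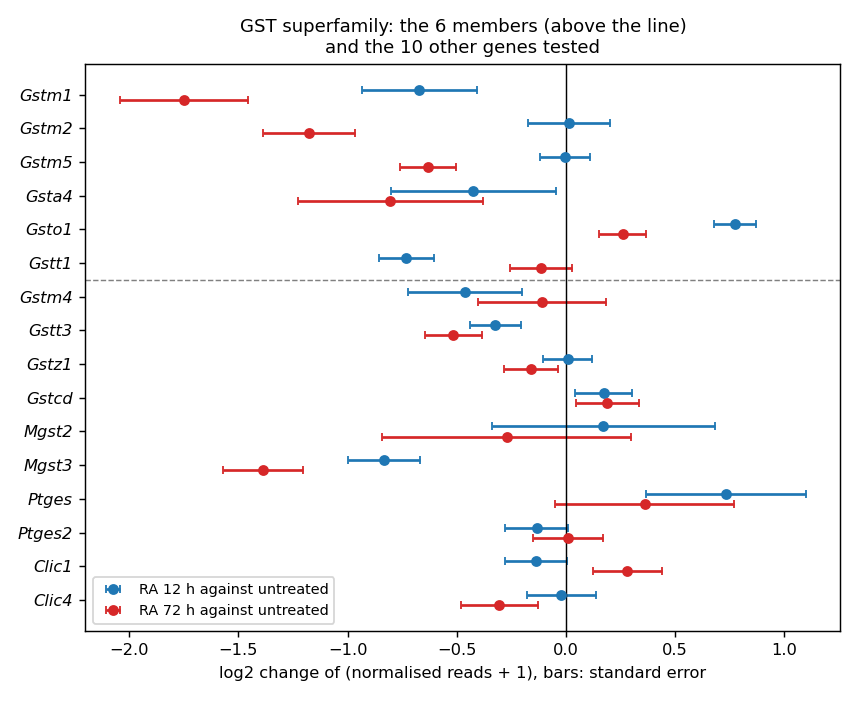
Log2 change of (normalised reads + 1) against untreated cells at RA 12 h and RA 72 h, with the standard error as bars, for the 6 members (above the dashed line) and the 10 other GST superfamily genes tested. Gstm1, Gstm2 and Gstm5 are left of 0 at 72 h, Gsto1 is right of 0 at both times, and among the other genes Mgst3 is farthest to the left, at -1.39 at 72 h.

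Genes linked to glutathione, which GSTs consume, were followed in 4 lists. They covered its synthesis and turnover, peroxidases and thiol reduction, the NRF2 pathway and its targets, and the export of conjugates. The lists held 75 genes, of which 73 were in the table and 63 were tested. Of these, 1 rose and 1 fell by at least 2-fold at 12 h, 2 rose and 2 fell at 72 h, and 1 was higher and 1 lower at 72 h than at 12 h. The shares of all genes called in this way were 1.11% and 0.308%, 2.15% and 1.52%, and 0.765% and 0.734%. By adjusted p alone in limma, 6 rose and 2 fell at 12 h, when 2.87% of all genes rose and 1.5% fell, and 8 rose and 7 fell at 72 h, when 6.08% rose and 5.41% fell. Between 72 h and 12 h, 1 was higher and 5 were lower, beside 2.92% and 2.92% of all genes.

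Gsr, glutathione reductase, which returns oxidised glutathione to its reduced form, rose at both times. It had 2475, 2432 and 1934 normalised reads untreated, 5280.3, 4852 and 5433 at RA 12 h and 5070.3 and 5195 at RA 72 h. Every RA library was above every untreated one, and the log2 change was 1.19 ± 0.11 (SE) at 12 h (limma, adjusted p = 1.56e-05) and 1.18 ± 0.12 (SE) at 72 h (adjusted p = 3.47e-05). Glrx, glutaredoxin, which uses glutathione to reduce protein disulphides, fell by 1.15 ± 0.12 (SE) on the log2 scale at 12 h (adjusted p = 4.59e-05), from 2705, 2674 and 2447 normalised reads to 1006, 1209 and 1331. At 72 h it had 1307 and 1604 normalised reads, still below every untreated library.

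Among the 17 tested genes of glutathione synthesis and turnover, 4 rose and 0 fell at 12 h by adjusted p alone, and 4 rose and 4 fell at 72 h. Over all genes 2.87% rose and 1.5% fell at 12 h, and 6.08% rose and 5.41% fell at 72 h. Gclm, the modifier subunit of the rate-limiting ligase of glutathione synthesis, rose by 0.51 ± 0.11 (SE) on the log2 scale at 12 h (limma, adjusted p = 0.0168) and 0.44 ± 0.12 (SE) at 72 h (adjusted p = 0.0343). Cth, which makes cysteine for glutathione, had 217, 220 and 176 normalised reads untreated, 252, 186 and 232 at RA 12 h and 99.9 and 91.1 at RA 72 h. Both 72 h libraries were below all the others, and Cth fell by 1.08 ± 0.17 (SE) at 72 h against untreated (adjusted p = 0.00079). Chac2, which degrades glutathione, had 147, 117 and 104 normalised reads untreated, 114, 109.5 and 103.5 at RA 12 h and 251 and 205 at RA 72 h. It was 1.05 ± 0.17 (SE) higher at 72 h than at 12 h on the log2 scale (adjusted p = 0.00307), but 0.91 without RA 72 h replicate 1, which did not pass (adjusted p = 0.0585).

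Peroxidases and thiol reduction held 19 tested genes, of which 1 rose and 1 fell at 12 h and 0 rose and 2 fell at 72 h by adjusted p alone. Over all genes 2.87% rose and 1.5% fell at 12 h, and 6.08% rose and 5.41% fell at 72 h. The same shares stand beside the lists that follow. Of the 21 tested genes of the NRF2 pathway, 1 rose and 0 fell at 12 h, and 3 rose and 1 fell at 72 h. Their directions differed at 72 h: Nqo1, a quinone reductase widely used as a readout of NRF2, had 566.5, 536 and 511 normalised reads untreated and 267 and 220 at RA 72 h. It fell by 1.15 ± 0.13 (SE) on the log2 scale (limma, adjusted p = 5.79e-05). Me1, the cytosolic malic enzyme, which makes NADPH, had 974, 875 and 735.5 normalised reads untreated and 1635 and 1799 at RA 72 h, and rose by 1.00 ± 0.13 (SE) (adjusted p = 0.000163). This lies at the 2-fold minimum, and the change was 0.89 without untreated replicate 3 and 0.93 without RA 72 h replicate 2. Of 6 tested transporters that export conjugates, 0 rose and 1 fell at 12 h and 1 rose and 0 fell at 72 h by adjusted p alone. The median log2 change of each list at 72 h lay near that of all genes (-0.02), at 0.01, 0.01 and -0.02, except for the transporters at -0.25.

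**Figure D4:**
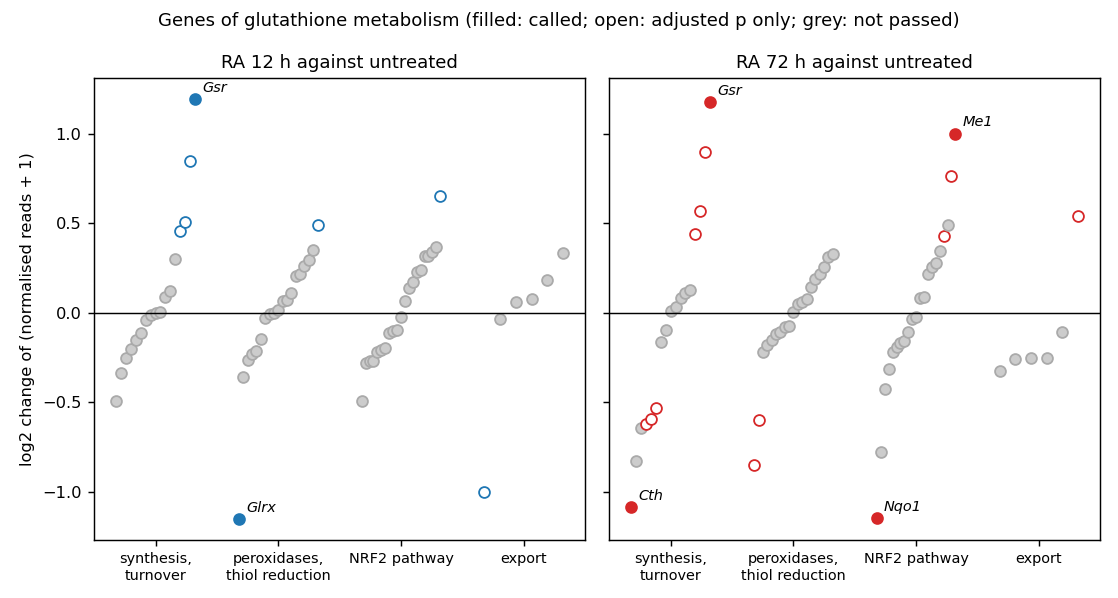
Log2 change of (normalised reads + 1) at RA 12 h (left) and RA 72 h (right) against untreated cells, each point a gene. Shown are the 63 tested genes of the 4 glutathione lists, which include the NRF2 pathway and its targets and the export of conjugates. Filled points were called (adjusted p below 0.05 and at least 2-fold), open points passed the adjusted p only and grey points did not pass; Gsr is highest at both times, Glrx is lowest at 12 h and Cth and Nqo1 are lowest at 72 h.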

How the data were processed

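Polyadenylated RNA was profiled as DpnII tags per the labels. The study's methods describe longer RNA-seq reads instead, so the 2 descriptions were set against the values. Among genes with a longest transcript of 1200 to 3000 bases, 39 without a GATC site had a median of 4.69 normalised reads. For 7989 genes with a site it was 26.2. A mean of at least 10 was reached by 33.3% of the genes without a site and 58.6% of those with it. Genes without a site were thus lower but often detected, so the values do not decide between the 2 descriptions. The genome build was mm9 per the labels. The authors deposited normalised values per Ensembl gene, in no standard unit, with identical sorted values in all 8 columns, which is quantile normalisation; they are not counts. Deposited log2 ratios of group averages hold the authors' own comparison and were not used, nor was 1 line that named no gene.

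The scale was log2(value + 1). Genes whose mean reached 10 were kept, and one linear model with 3 groups was fitted to all 8 libraries with limma (3.58.1, R 4.3.3) with a variance trend. P-values are two-sided, with Benjamini-Hochberg adjustment over all 12673 genes tested. Nothing in the labels says that replicates were separate cultures, so p-values measure only the spread between these libraries. The members and gene lists were chosen with earlier results of these data known. Named genes were the members, list genes called in any comparison and the other tested GST genes. They also took in the 3 nearest profiles and the 3 nearest genes on each side. Gclm, Chac1, Gstm7, Gstm3 and Gstm6 were chosen after their values were seen. Of the gene identifiers, 96.69% were in the mm9 annotation used for positions and tags. Whether the replicate numbers pair the libraries is not known, and the main fit did not use them. The fit was run on simulated data with independent noise in each library. The shared axis was not part of them, so the run says nothing of its effect. Alternatives were another pseudocount, filter, variance model and fold minimum, a replicate block, the shared axis as a term, and each library left out.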

Additional observations from a re-analysis of the deposited data

Results flagged for a closer look

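Among the genes outside the members that were called in some comparison, Chac2 and Cth differed by at least 2-fold between the libraries at RA 72 h and at RA 12 h. Without the 2-fold minimum, 1 gene of the 4 glutathione lists was higher and 5 were lower at 72 h than at 12 h, among them Chac1, at -0.83 (limma, adjusted p = 0.000545). RA and time in culture cannot be told apart at 72 h. For Chac2 the difference between 72 h and 12 h was 1.05 on the log2 scale (limma, adjusted p = 0.00307), with both 72 h libraries above all 3 at 12 h. For Cth it was -1.21 (adjusted p = 0.000791), with both 72 h libraries below all 3 at 12 h. The call for Chac2 was lost with a pseudocount of 10 (0.99), in the replicate block (0.98) and without RA 72 h replicate 1 (0.91), in each case because the change fell below 2-fold or, in the last, also because the adjusted p was 0.0585.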

How the results depend on the processing

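No called change turned its direction. The 12 h differences of Gstm2 (0.01) and Gstm5 (-0.00), which lay near 0, changed sign when 1 library was left out, with ranges of -0.12 to 0.10 and -0.08 to 0.08. Over all genes, 180, 465 and 190 were called at 12 h, at 72 h and between the RA times; a 3-fold minimum gave 59, 165 and 41, no minimum of change gave 554, 1456 and 740, and leaving out 1 library gave 148 to 322, 357 to 641 and 150 to 211, with the 322 reached without untreated replicate 3. For the GST genes outside the members, 0 called at 12 h became 1 (Mgst3) with no minimum of change or without untreated replicate 3 (range 0 to 1), and 1 called at 72 h became 2 without the filter on low values (with Gstm3, at the floor of 1 at 72 h) or with no minimum, and 0 at 3-fold. For the glutathione lists, 2, 4 and 2 called became 0, 0 and 0 at 3-fold and 8, 15 and 6 with no minimum of change, and the last was 1 with a pseudocount of 10. Me1 at 72 h fell just under 2-fold with a pseudocount of 10 (0.99), without untreated replicate 3 (0.89) and without RA 72 h replicate 2 (0.93). The log2 difference of Gstm2 ranged from -1.42 to -0.93 at 72 h against untreated and from -1.44 to -0.94 against 12 h when 1 library was left out. Replicate numbers were shared by the groups, and residuals of same-numbered libraries correlated at -0.474 to 0.42. The residuals were centred within groups of 2 or 3 libraries, which constrains these correlations. They therefore cannot tell whether the numbers pair the libraries. A replicate block gave 174, 430 and 172 genes called, 1 in place of 2 glutathione genes between the RA times, and 0.95 for Me1. Depth per library was lost in the normalisation, so counting error could not be set beside low values such as those of Gsta4.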
